A study of Arabidopsis thaliana with 8 samples.

Results

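Seedlings of *Arabidopsis thaliana* grown on 100 mM NaCl were compared between replicates: the replicate 1 libraries of the NaCl groups (*idd4* NaCl 1 and WT NaCl 1) against the replicate 2 libraries (*idd4* NaCl 2 and WT NaCl 2), with genotype as a covariate. The comparison shows which physiological programmes differ together between salt-treated libraries that carry the same treatment label. Its members are 4 of the 8 RNA sequencing libraries of the series, and the 19534 of 27207 genes whose mean value over these 4 libraries is at least 10. The 3 genes nearest to that limit had means of 10.002, 10.004 and 10.005 inside it and 9.98, 9.981 and 9.997 outside it.

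The 4 groups, of 2 libraries each, are *idd4* with NaCl, WT with NaCl, *idd4* without NaCl (mock) and WT without NaCl. All are whole seedlings of 14 days in the Columbia-0 background, which had been moved as young seedlings to half-strength MS plates with or without 100 mM NaCl, and *idd4* carries a T-DNA insertion in the open reading frame of *IDD4*, a zinc finger transcription factor gene. Each library is described as a biological replicate, but nothing in the labels says that replicate number 1 or 2 marks a shared plate, growth batch, harvest or day. Replicate 1 against 2 is therefore a difference between sets of libraries, and what set them apart cannot be told apart from the number itself. Values are fragment counts scaled by 1 factor per library, not corrected for gene length, so a gene is compared between libraries and never with another gene. In each pair of values the library labelled *idd4* is given before the WT library. Differences are log2(value + 1) in replicate 1 minus replicate 2, averaged over the genotypes, so a positive difference means higher in replicate 1, with the standard error (SE) and the Benjamini-Hochberg adjusted p of limma. A gene was called at an adjusted p under 0.05. A difference within *idd4* or within WT is that between the 2 libraries with that label.

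*IDD4* (AT2G02080) itself did not mark the libraries labelled *idd4* as lower. Its values were 603 and 527.5 in *idd4* NaCl 1 and 2, against 414 and 428 in WT NaCl 1 and 2, and 477 and 436 in *idd4* mock, against 274 and 360.1 in WT mock. The label is used here as given, and no direction between genotypes is drawn. Between replicates *IDD4* differed by 0.07 (SE 0.20, adjusted p = 0.92, limma). Recovered depth was 5882615 and 10542342 fragments in replicate 1 and 13557480 and 9717450 in replicate 2, and the shallowest library of the series is *idd4* NaCl 1. Over the 19534 genes, replicates of one genotype under NaCl correlated at r = 0.948 (*idd4*) and r = 0.946 (WT) on the log2 scale, which is a description across genes and not across independent samples.

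Several of the programmes described here respond within minutes to hours, or to the state of the medium. Jasmonate is a lipid-derived hormone of wounding and defence: its active conjugate triggers the breakdown of JAZ repressors, which frees the transcription factor MYC2, and MYC2 in turn raises the transcription of *JAZ* genes, of jasmonate biosynthesis genes and of storage-type defence proteins. Touch, cutting and bending of a plant induce within minutes genes for calmodulin-like proteins, zinc finger, WRKY and ERF transcription factors and wall enzymes. Heat shock factors induce chaperones when proteins unfold. Iron-deficient roots induce a cascade of bHLH factors, the ferric reductase FRO2, the transporter IRT1 and the enzymes of coumarin secretion, while ferritins, which store iron, follow iron excess.

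Of the 19534 genes tested, 959 were higher in replicate 1 (4.91% of genes) and 327 were lower (1.67%), 1286 in all. Libraries were left out 1 at a time in a fit that also held the 4 mock libraries, since the 3 remaining NaCl libraries alone leave no residual degree of freedom. Without *idd4* NaCl 1 or *idd4* NaCl 2, which leaves the difference within WT, 566 and 584 genes were called. Without WT NaCl 1 or WT NaCl 2, which leaves the difference within the libraries labelled *idd4*, 924 and 963 were called. In the values as deposited the median gene was 0.099 higher in replicate 1. After median-of-ratios scaling the median gene was at -0.006, with 797 genes higher and 458 lower, and the share of calls that were higher moved to 63.5% from 74.6%. Of the 959 genes, 950 had both replicate 1 libraries above both replicate 2 libraries, as had 31.0% of all genes tested. Of the 327, 325 had both below, as had 14.2% of all genes tested. A difference of at least 2-fold in the same direction in each genotype was measured for 563 genes that were higher and 156 that were lower. With every library thinned to the depth of *idd4* NaCl 1, 708 of the 959 and 219 of the 327 were still called. The model leaves 1 residual degree of freedom per gene, so that its p-values rest largely on the spread shared by genes of like level, and without the trend of variance on level 293 genes were called. Of the 959 genes, 97 had a mean under 10 in replicate 2, and of the 327, 14 had a mean under 10 in replicate 1. These passed the minimum of 10 only through the replicate in which they were high, so they could enter the test only by differing.

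**Figure D1:**
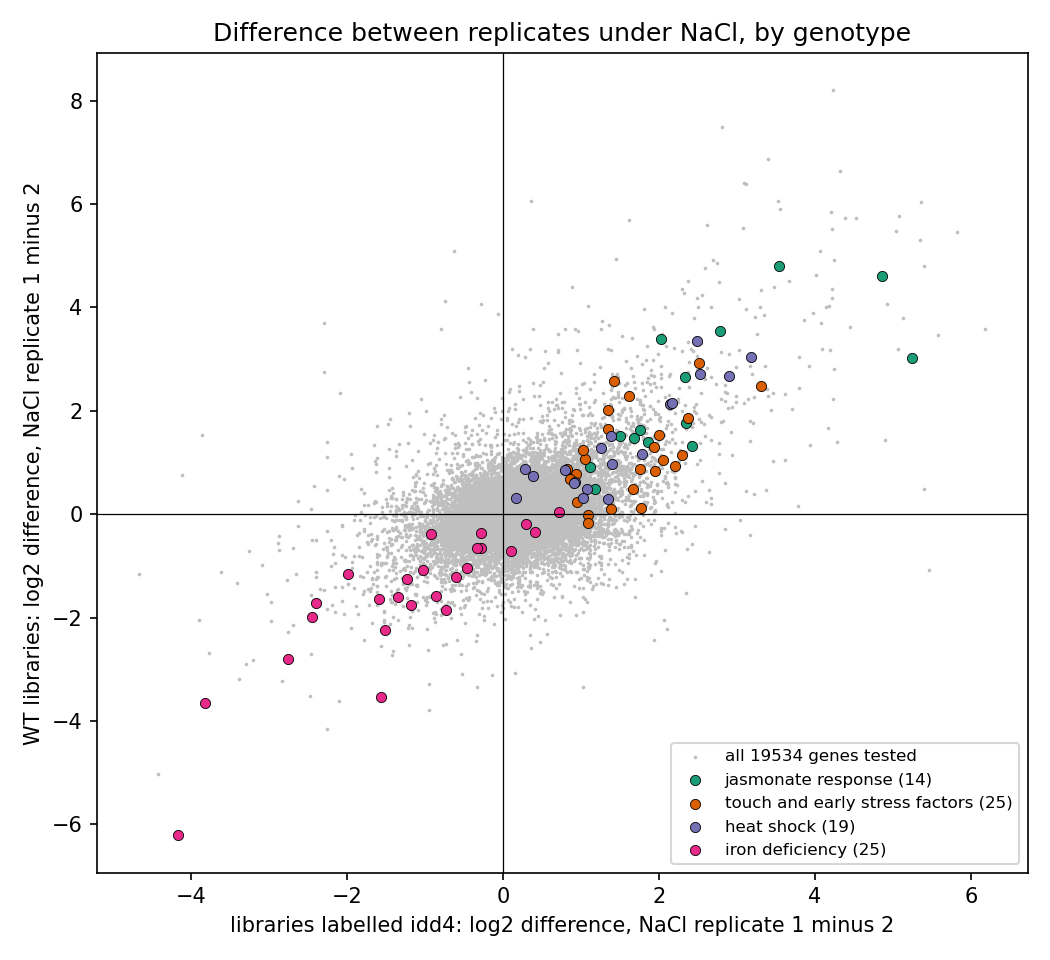
Log2 difference between replicate 1 and replicate 2 under NaCl in the libraries labelled *idd4* (horizontal axis) and in the WT libraries (vertical axis), 1 point per gene, with 4 gene lists coloured. Jasmonate response, touch and heat shock genes lie to the upper right and most iron deficiency genes to the lower left, and over all 19534 genes the differences of the genotypes correlated at r = 0.49.

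The differences within the libraries labelled *idd4* and within WT, which share no library, correlated across genes at r = 0.49 under NaCl. In mock the same value was 0.34. Differences under NaCl and in mock, compared within one genotype, correlated at 0.29 in *idd4* and 0.05 in WT. Genes are not independent of each other, and these values are descriptions.

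The genes with the largest positive differences, by a rule given with the processing, include transcription factor, oxygenase and terpene synthesis genes. The rule required a mean of at least 50 and replicates that do not overlap, so the lack of overlap in these genes is not a finding. *RRTF1* (AT4G34410), an ERF transcription factor of redox and jasmonate responses, had 192 and 292 in replicate 1, against 9.31 and 0 in replicate 2, a difference of 6.21 (SE 0.61, adjusted p = 3e-08, limma). Its mock libraries had 16.3 and 5.35 in mock replicate 1, against 8.80 and 16.9 in mock replicate 2. In the 6 libraries other than NaCl replicate 1 it was at most 16.9. Since 1 value is 0, its difference ran from 4.84 with a pseudocount of 5 to 6.74 with a pseudocount of 0.5, and DESeq2 did not call it (adjusted p = 0.13). *JRG21* (AT3G55970), a jasmonate-regulated oxygenase gene, had 1539 and 925 in replicate 1, against 36.5 and 13.0 in replicate 2, with a difference of 5.70 (SE 0.26, adjusted p = 9.1e-15, limma), and values of at most 0.99 in any mock library. AT2G38240, annotated as a 2-oxoglutarate- and Fe(II)-dependent oxygenase, had 506 and 1172 in replicate 1, against 14.0 and 20.6 in replicate 2, with a difference of 5.42 (SE 0.29, adjusted p = 1.2e-13, limma).

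*TPS04*, which encodes geranyllinalool synthase, and *CYP82G1*, which encodes the P450 that acts after it in the synthesis of a volatile homoterpene, were both higher in replicate 1. *TPS04* (AT1G61120) had 357 and 397 in replicate 1, against 10.9 and 22.8 in replicate 2, a difference of 4.49 (SE 0.33, adjusted p = 2.2e-10, limma). *CYP82G1* (AT3G25180) had 113 and 84.0 in replicate 1, against 12.4 and 0 in replicate 2, a difference of 4.75 (SE 0.63, adjusted p = 5.6e-06, limma). *AOX1D* (AT1G32350), an alternative oxidase of mitochondria, had 411 and 804 in replicate 1, against 48.1 and 16.3 in replicate 2, a difference of 4.31. The dirigent protein gene *DIR5* had 127 and 77.0 in replicate 1, against 6.98 and 2.17 in replicate 2, a difference of 4.31 (SE 0.51, adjusted p = 9e-07, limma), and the transcription factor gene *ERF13* had 289 and 210.1 in replicate 1, against 24.1 and 2.17 in replicate 2, a difference of 4.79 (SE 0.46, adjusted p = 2e-08, limma). In *DIR5* and *ERF13* the WT library of replicate 2 was the lowest. *BHLH92*, a transcription factor gene, differed by 5.02, and AT5G55150, annotated as an F-box protein, by 5.14. A further gene named by this rule, *AIR1* (AT4G12550), a lipid transfer-like gene first found as auxin-induced in root cultures, had 4431 and 2946 in replicate 1, against 108 and 73.8 in replicate 2, a difference of 5.32 (SE 0.20, adjusted p = 5.9e-17, limma). *AIR1* was also higher in replicate 1 without salt, with 1169 and 972 in mock replicate 1, against 209 and 168 in mock replicate 2, a mock difference of 2.50 (SE 0.15, adjusted p = 4.1e-05, limma). *RRTF1*, *CYP82G1*, *DIR5*, *BHLH92* and AT5G55150 passed the minimum of 10 only through replicate 1, so they could enter the test only by differing. Without either WT NaCl library, the differences of *CYP82G1* (3.09) and AT5G55150 (2.81) did not pass, and DESeq2 did not call AT5G55150 (adjusted p = 0.4).

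The promoter of *RRTF1* is shown because it carries a G-box, the letters CACGTG, to which bHLH factors such as MYC2 bind, while *RRTF1* has the largest difference among the 19534 genes tested. The window runs from 250 bases before to 50 bases after the annotated start (chr4:16451626-16451925, plus strand, TAIR10.1, RefSeq), 5′ to 3′, with the G-box in capitals, 134 bases before the start.
RRTF1: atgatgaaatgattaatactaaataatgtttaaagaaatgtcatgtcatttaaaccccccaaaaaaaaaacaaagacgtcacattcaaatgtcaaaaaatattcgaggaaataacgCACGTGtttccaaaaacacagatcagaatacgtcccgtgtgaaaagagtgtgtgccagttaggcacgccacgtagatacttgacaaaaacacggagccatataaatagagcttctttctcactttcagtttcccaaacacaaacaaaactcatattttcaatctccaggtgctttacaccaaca
A G-box was found in the same window of 5 of 14 jasmonate response genes (35.7%), against 7.78% of all 26557 promoters and 8.8% of genes tested. The share was 12.3% in genes called higher and 9.85% in genes called lower. The ABRE core ACGTG, which each G-box contains, was found in 78.6% of the jasmonate response genes. It was found in 42.5% of genes called higher, 35.7% of genes called lower, 28.1% of genes tested and 26.9% of all promoters. Both strands were searched, and a match describes the letters of the window only.

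Jasmonate response genes were the list with the highest median among those with at least 5 genes tested. Of 15 members 14 reached the minimum mean of 10, and of these 13 were higher in replicate 1 and 0 lower, against a background of 4.91% of genes called higher, and the median difference was 1.96, with 2.17 within *idd4* and 1.69 within WT. The median of all genes was 0.099. This list and the others were chosen with earlier results of these data known, so their counts beside the background are descriptions and not independent support. Among the repressors, *JAZ10* (AT5G13220) had 343 and 289 in replicate 1, against 10.9 and 10.9 in replicate 2, a difference of 4.73 (SE 0.35, adjusted p = 2.4e-10, limma), or 26.6-fold on the log2(value + 1) scale. Libraries of the same replicate number were close together, and the replicates were far apart. *JAZ8* differed by 4.17 (SE 0.83, adjusted p = 0.0012, limma), *JAZ5* by 2.49 and *JAZ1* by 2.06. *JAZ7*, *JAZ6*, *JAZ9* and *JAZ2* were also called, with differences of 2.71, 1.62, 1.58 and 1.02. *JAZ7* (2.02 within *idd4*) was lost without a WT library, and *JAZ2* (0.92 within WT) without a library labelled *idd4*. *JAZ8* and *JAZ7* passed the minimum only through replicate 1, and the other 12 members did not depend on it, of which 11 were called. The member that did not pass was *JAZ3*, at 0.83 (SE 0.29, adjusted p = 0.092, limma).

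*MYC2* (AT1G32640), the bHLH activator that JAZ proteins hold in check, had 4629.9 and 3516 in replicate 1, against 1374 and 1147 in replicate 2, a difference of 1.68 (SE 0.19, adjusted p = 5.4e-07, limma). Without NaCl *MYC2* went the other way, with 1119.6 and 1358 in mock replicate 1, against 1941 and 2176 in mock replicate 2, a difference of -0.74 (SE 0.13, adjusted p = 0.023, limma). *VSP1* and *VSP2*, which encode vegetative storage proteins with phosphatase activity, are targets of this pathway. *VSP1* (AT5G24780) had 20848 and 16486 in replicate 1, against 3039.9 and 1404 in replicate 2, a difference of 3.17 (SE 0.23, adjusted p = 2.4e-10, limma), and *VSP2* (AT5G24770) had 29866 and 21876 in replicate 1, against 10573 and 7646 in replicate 2, a difference of 1.51 (SE 0.27, adjusted p = 0.00038, limma). *TAT3*, a tyrosine aminotransferase gene, had 800.0 and 906 in replicate 1, against 20.2 and 109.7 in replicate 2. Its 4 mock values were at most 2.14, below all 4 NaCl values. *ORA59*, an ERF that joins jasmonate and ethylene signals, differed by 1.87 (SE 0.37, adjusted p = 0.0011, limma). The count of 13 was 11 without any one of the 4 libraries, and *JAZ8* was among those not called without a WT library (3.54 within *idd4*), *ORA59* among those not called without a library labelled *idd4* (1.32 within WT).

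Of 12 jasmonate synthesis genes 5 were higher and 0 lower, against 4.91% and 1.67% of all genes, with a median of 0.50. Lipoxygenases of the first step were among them. *LOX3* (AT1G17420) had 865 and 977 in replicate 1, against 233 and 269 in replicate 2, a difference of 1.87 (SE 0.20, adjusted p = 1.4e-07, limma), and *LOX4* (AT1G72520) had 791 and 1062 in replicate 1, against 503 and 257 in replicate 2, a difference of 1.35 (SE 0.24, adjusted p = 0.00029, limma). In mock *LOX4* went the other way, with 72.0 and 134 in mock replicate 1, against 321 and 329 in mock replicate 2. That difference was -1.72 (SE 0.22, adjusted p = 0.0085, limma), and *LOX4* was the 1 member called in mock. *AOC3*, an allene oxide cyclase gene, differed by 1.37, the reductase gene *OPR3* by 0.69, and *CYP94C1*, whose product oxidises the active conjugate, by 2.42. *LOX2* and *AOS*, which also act in the pathway, differed by 0.48 and 0.17 and did not pass. The count was 3 without either WT library, when *LOX4* (0.65 within *idd4*) and *OPR3* (0.54) were lost, and 4 without either library labelled *idd4*, when *OPR3* was lost (0.83 within WT).

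**Figure D2:**
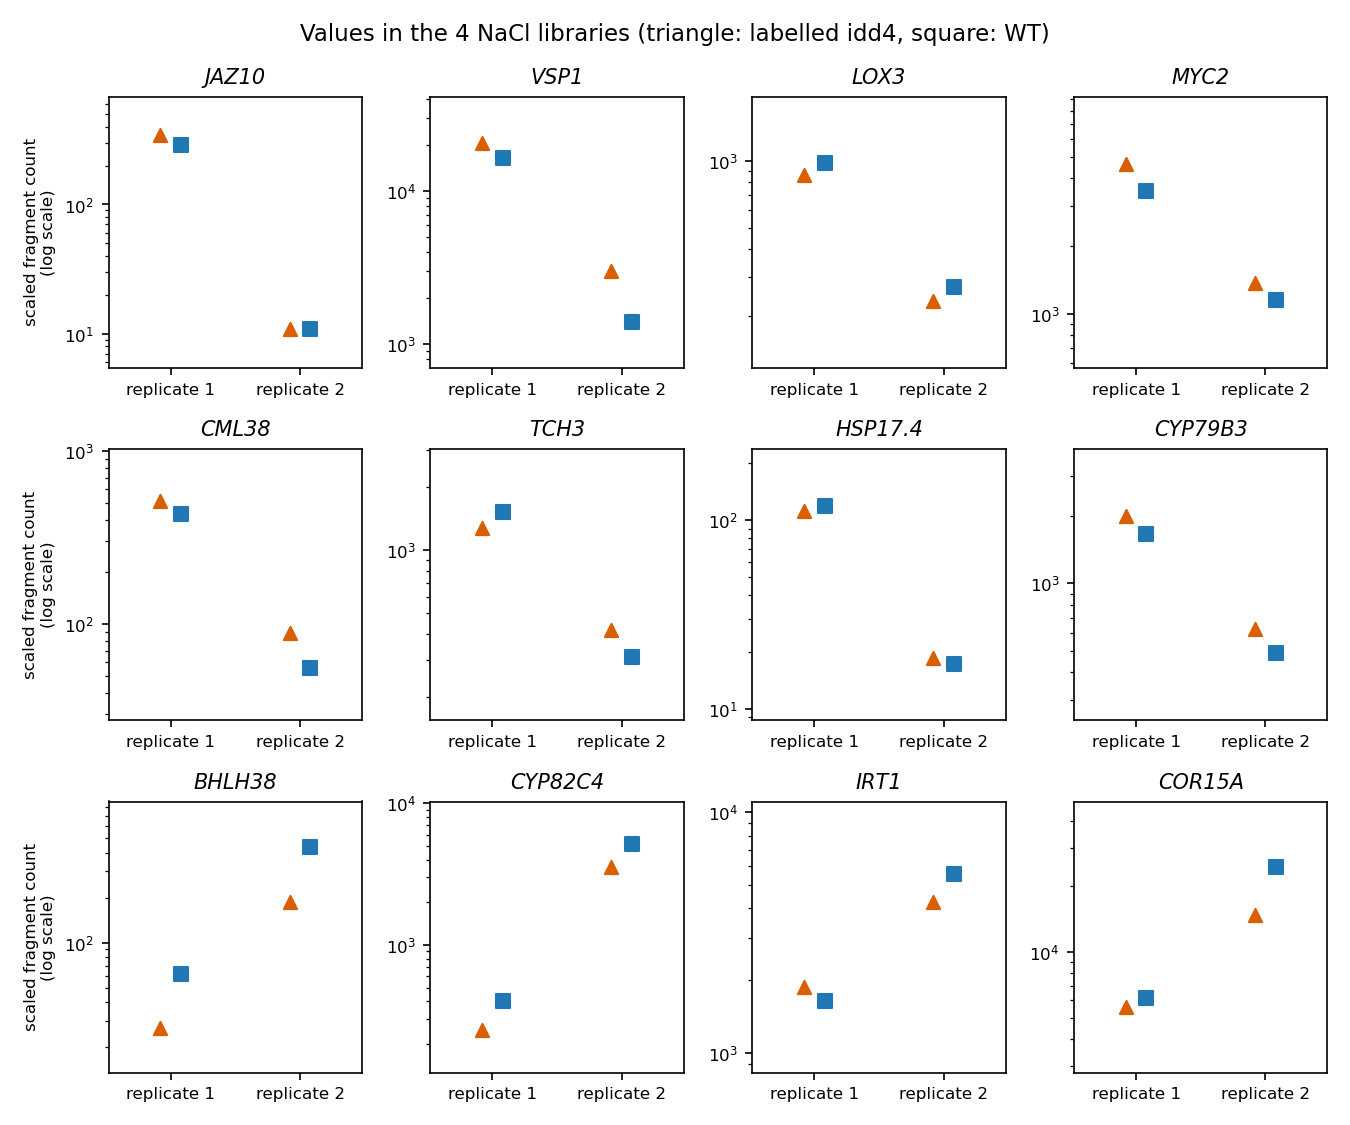
Scaled fragment counts (log axis) of 12 genes in the 4 NaCl libraries, with replicate 1 left of replicate 2, triangles for libraries labelled *idd4* and squares for WT. In the first 8 genes both replicate 1 values lie above both replicate 2 values (*JAZ10*, 343 and 289 against 10.9 and 10.9), and in the last 4 both lie below (*CYP82C4*, 251 and 406 against 3563 and 5125).

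Genes induced by touch and as early stress factors differed between the replicates in opposite directions with and without NaCl. Under NaCl 19 of 25 were higher in replicate 1 and 0 lower, against 4.91% and 1.67% of all genes. All 25 differences were above 0 and the median was 1.39, with 1.61 within *idd4* and 1.05 within WT. In the mock libraries 0 were higher and 14 lower, against a background of 1.66% of genes higher and 1.18% lower. The mock median was -0.80, and 22 of the 25 mock differences were below 0. The median of all genes in mock was 0.116. *CML38* (AT1G76650), a calmodulin-like calcium sensor gene, had 513 and 429 in replicate 1, against 89.2 and 55.4 in replicate 2 under NaCl, a difference of 2.72 (SE 0.25, adjusted p = 9.5e-09, limma). Its mock values were 106 and 124 in mock replicate 1, against 350.2 and 263 in mock replicate 2, a difference of -1.40 (SE 0.20, adjusted p = 0.011, limma). *TCH3* (AT2G41100), a calmodulin-like gene named for its induction by touch, had 1279 and 1517 in replicate 1, against 417 and 309 in replicate 2 under NaCl and 984 and 1694 in mock replicate 1, against 2555 and 2375 in mock replicate 2.

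The test of the difference itself, NaCl minus mock, fitted on all 8 libraries, called 18 of the 25 higher and 0 lower, against 1.52% of all genes higher and 0.164% lower. It shares its libraries with both comparisons. Over the other settings it called 16 to 22 of the 25, except that without the trend of variance on level it called 0. *CML38* differed by 4.12 (SE 0.31, adjusted p = 0.0003, limma) in that test, *ZAT10*, a zinc finger repressor gene, by 3.02 (SE 0.30, adjusted p = 0.00096, limma), and *TCH3* by 2.88 (SE 0.31, adjusted p = 0.0016, limma). *WRKY40*, a WRKY factor gene, had 361 and 264 in replicate 1, against 69.0 and 71.7 in replicate 2 under NaCl and 72.9 and 273 in mock replicate 1, against 337 and 403 in mock replicate 2. *TCH4*, a xyloglucan endotransglucosylase gene, had 1848 and 1918 in replicate 1, against 724 and 609 in replicate 2 under NaCl and 999 and 1884 in mock replicate 1, against 2804 and 2503 in mock replicate 2. *CAF1A*, which encodes a deadenylase of mRNA, had 1121 and 518 in replicate 1, against 226 and 232 in replicate 2 under NaCl and 699 and 1576 in mock replicate 1, against 2995 and 2995 in mock replicate 2. For *TCH4* and *CAF1A* the lowest 2 of the 8 libraries were those of NaCl replicate 2, and the highest 2 were those of mock replicate 2.

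Set against the mock libraries of the same number, 19 of the 25 touch and early stress genes were above mock in replicate 1, with a median difference of 0.43, and 2 were above mock in replicate 2, with a median of -1.31. The medians of all genes were 0.24 and 0.27. Other members had the same signs: *ZAT12* differed by 1.68 under NaCl and -0.83 in mock, *ERF11* by 1.62 and -1.73, and *SZF1* by 1.13 and -1.52. *MYB15*, whose mock values were at most 13.6, differed by 2.89 (SE 0.31, adjusted p = 1.3e-07, limma) under NaCl and -0.76 (adjusted p = 0.42, limma) in mock. Outside the list, *CBF2* (AT4G25470), an AP2 factor of cold responses, had 174 and 186 in replicate 1, against 69.8 and 115 in replicate 2 under NaCl and 85.4 and 153 in mock replicate 1, against 358 and 278 in mock replicate 2. *ACS6*, an enzyme gene of ethylene synthesis in the ethylene list, differed by 1.05 and -0.96, and *OM66*, which encodes a mitochondrial outer membrane ATPase, by 2.01 and -1.27. All 3 were called under NaCl and in mock. Without the trend of variance on level, the count of 19 touch and early stress genes under NaCl was 5. The count of 19 was 18 without either WT NaCl library, and 8 and 9 without *idd4* NaCl 1 and *idd4* NaCl 2. Within WT alone *CAF1A* (1.15), *ERF11* (1.31), *SZF1* (1.24), *ACS6* (0.83) and *CBF2* (0.69) did not pass, nor did *SZF1* (1.03) and *CBF2* (1.31) within *idd4* alone. Without *idd4* NaCl 1 *WRKY40* (1.87 within WT), and without WT NaCl 1 *ACS6* (1.27 within *idd4*), fell short of the threshold. The mock count of 14 depends on the settings: it was 17 with edgeR, 9 with DESeq2, 5 with TMM and 3 with median-of-ratios scaling, and 0 with quantile normalization, with thinning, with a minimum mean of 1 or without the trend of variance on level. It was 12 without either WT mock library and 0 without *idd4* mock 1 or *idd4* mock 2. The mock median stayed between -1.12 and -0.51 in all of these.

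**Figure D3:**
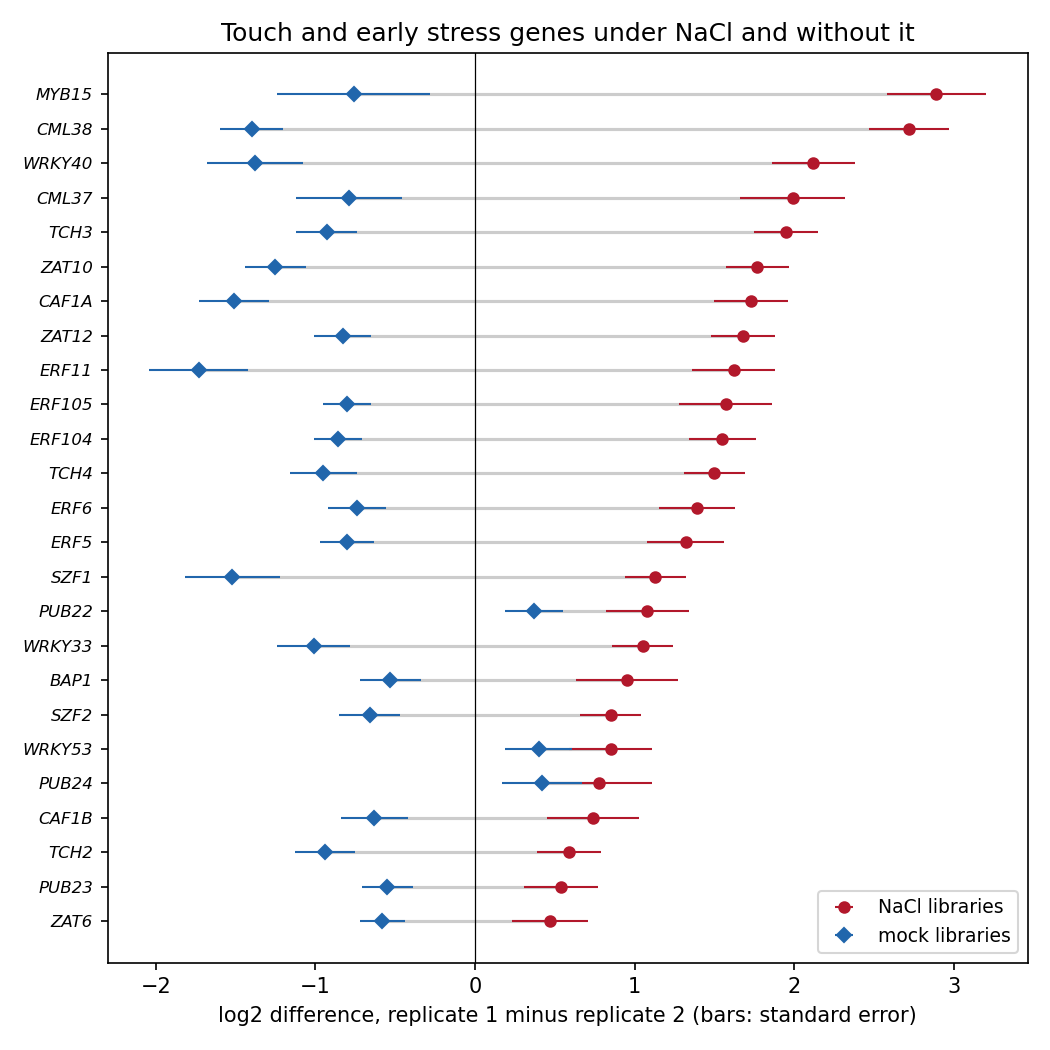
Log2 difference between replicate 1 and replicate 2 of the 25 touch and early stress genes under NaCl (circles) and in mock (diamonds), with the standard error as bars. All 25 circles lie right of 0, and 22 of 25 diamonds lie left of it.

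Heat shock genes were mostly higher in replicate 1. Of 21 members 19 reached the minimum, and of these 15 were called higher and 0 lower, against 4.91% and 1.67% of all genes. Of the 15, 3 (*HSP17.6II*, *HSP23.6* and AT1G53540) passed the minimum only through replicate 1. The median was 1.18, with 1.34 within *idd4* and 0.97 within WT. Small heat shock proteins, chaperones that hold unfolded proteins, had the largest differences. *HSP17.6II* (AT5G12020) had 57.4 and 52.0 in replicate 1, against 5.43 and 5.43 in replicate 2, a difference of 3.11 (SE 0.54, adjusted p = 0.00027, limma), and *HSP17.4* (AT3G46230) had 111 and 119 in replicate 1, against 18.6 and 17.37 in replicate 2, a difference of 2.61 (SE 0.39, adjusted p = 2.7e-05, limma). *HSFA7A*, a heat shock factor gene, had 279.8 and 141 in replicate 1, against 62.8 and 31.5 in replicate 2, and *HSFA2*, a factor that prolongs the response, differed by 1.48. *DREB2A*, a factor of drought and heat responses, had 897 and 693 in replicate 1, against 344 and 243 in replicate 2, a difference of 1.44 (SE 0.20, adjusted p = 1e-05, limma). The larger chaperone gene *HSP90-1* had 556 and 550.3 in replicate 1, against 296 and 362 in replicate 2, a difference of 0.76 (SE 0.20, adjusted p = 0.02, limma), and *HSP101*, a disaggregase gene, differed by 0.55 and did not pass. In mock 0 of 19 were called in either direction, with a median of 0.46, and the NaCl minus mock test called 3 higher, against 1.52% of all genes. The count of 15 was 6 and 7 without WT NaCl 1 and WT NaCl 2, and 3 without either library labelled *idd4*. *HSP17.6II*, *HSP17.4*, *HSFA2* and *HSP90-1* did not pass within either genotype alone, at 3.18, 2.52, 1.78 and 0.91 within *idd4* and 3.04, 2.71, 1.17 and 0.60 within WT.

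The promoter of *HSP17.4* is shown for its heat shock element, searched as GAANNTTC, which marks sites where heat shock factors can bind as trimers. The window (chr3:16984818-16985117, minus strand, TAIR10.1, RefSeq; 250 bases before to 50 after the start) has 2 matches in capitals, 99 and 18 bases before the start.
HSP17.4: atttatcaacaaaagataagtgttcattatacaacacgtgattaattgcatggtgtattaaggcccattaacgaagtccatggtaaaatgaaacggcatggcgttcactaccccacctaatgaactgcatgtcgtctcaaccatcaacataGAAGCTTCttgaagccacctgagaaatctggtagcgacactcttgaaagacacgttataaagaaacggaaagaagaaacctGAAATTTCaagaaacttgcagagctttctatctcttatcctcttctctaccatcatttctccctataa
A match was found in 9 of 19 heat shock list promoters (47.4%), against 11.5% of all promoters and 11.3% of those of genes tested. The share was 15.5% in promoters of genes called higher and 9.54% in those of genes called lower.

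Part of the glucosinolate pathway, which makes sulfur-containing defence compounds, was higher in replicate 1. Of 23 glucosinolate synthesis genes, 8 were higher and 0 lower, against 4.91% and 1.67% of all genes, with a median of 0.47. Those on the tryptophan branch had the largest differences. *CYP79B3* (AT2G22330), which makes indole acetaldoxime from tryptophan, had 1988 and 1657 in replicate 1, against 623 and 489 in replicate 2, a difference of 1.72 (SE 0.19, adjusted p = 2.5e-07, limma), and *CYP79B2* (AT4G39950), its close relative, had 3685 and 3279.9 in replicate 1, against 1931 and 1406 in replicate 2, a difference of 1.08 (SE 0.20, adjusted p = 0.00044, limma). *CYP83B1*, the next enzyme, differed by 1.03, the sulfotransferase gene *SOT16* by 0.99 and *MYB34*, a regulator of the branch, by 0.84. On the methionine branch *CYP79F2* differed by 0.81 and was called, whereas the regulators *MYB28* (-0.50) and *MYB29* (-0.28) were not. The count was 5 without either WT library, when *CYP79F2* (0.49 within *idd4*) was lost, and 6 without either library labelled *idd4*, when *MYB34* (0.83 within WT) was lost.

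Some ethylene and salicylate genes were higher, against 4.91% of all genes. Of 10 ethylene genes 3 were higher and 0 lower. *ACS2*, a gene of ethylene synthesis, had 341 and 581 in replicate 1, against 59.7 and 68.4 in replicate 2, a difference of 2.78 (SE 0.26, adjusted p = 1.1e-08, limma), and *ERF1*, which passed the minimum only through replicate 1, had 32.3 and 24.01 in replicate 1, against 0.78 and 4.34 in replicate 2. Of 16 salicylate and immunity genes 4 were higher and 0 lower, with a median of 0.25. *CBP60G*, an activator of salicylate synthesis, had 196 and 223 in replicate 1, against 67.5 and 54.3 in replicate 2, a difference of 1.77 (SE 0.29, adjusted p = 0.0001, limma). *PR2*, which encodes a glucanase of pathogen defence, had 339 and 222 in replicate 1, against 31.8 and 159.6 in replicate 2, and *ICS1*, the main salicylate synthesis gene, differed by -0.23 and did not pass. The WT values of *PR2* were closer together than those of *idd4*, and within WT (0.47) it did not pass. The counts of both lists were 1 without either library labelled *idd4*, when *ERF1* (2.23 within WT) was among those lost. Without WT NaCl 1 they were 3 each.

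Iron deficiency genes were the list with the lowest median. Of 26 members 25 reached the minimum, and of these 0 were higher and 18 lower in replicate 1, against a background of 1.67% of genes called lower, and the median was -1.24, with -1.03 within *idd4* and -1.25 within WT. Oxygenase genes had the largest differences. AT3G12900, annotated as a 2-oxoglutarate- and Fe(II)-dependent oxygenase, had 14.3 and 6.0 in replicate 1, against 273 and 518 in replicate 2, a difference of -5.18 (SE 0.40, adjusted p = 4.3e-10, limma). *CYP82C4* (AT4G31940), which hydroxylates coumarins in iron-deficient roots, had 251 and 406 in replicate 1, against 3563 and 5125 in replicate 2, a difference of -3.74 (SE 0.19, adjusted p = 4.5e-14, limma). Replicate 2 under NaCl held the highest 2 of all 8 values of *CYP82C4*, whose mock values were 547 and 1284 in mock replicate 1, against 1040.3 and 1607 in mock replicate 2.

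Among the regulators of the cascade, bHLH and MYB factor genes were lower. *BHLH38* (AT3G56970) had 26.9 and 62.0 in replicate 1, against 187 and 439 in replicate 2, a difference of -2.78 (SE 0.29, adjusted p = 8.6e-08, limma). Its relatives *BHLH39*, *BHLH100* and *BHLH101*, which pair with FIT, differed by -1.30, -1.48 and -2.55, and *MYB10*, a MYB factor needed under iron deficiency, by -2.21 (SE 0.39, adjusted p = 0.00033, limma). *FIT* itself (AT2G28160) did not pass, with 619 and 461 in replicate 1, against 507 and 526 in replicate 2, a difference of 0.05 (SE 0.20, adjusted p = 0.95, limma). The genes of reduction and uptake were lower. *IRT1* (AT4G19690), the main ferrous iron transporter of the root, had 1882 and 1646 in replicate 1, against 4256 and 5552 in replicate 2, a difference of -1.47 (SE 0.21, adjusted p = 1.3e-05, limma), and *FRO2* (AT1G01580), the ferric chelate reductase, had 352 and 328 in replicate 1, against 1001 and 1558 in replicate 2, a difference of -1.87 (SE 0.21, adjusted p = 2.4e-07, limma).

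Nicotianamine synthase genes, which make an iron chelator for transport in the plant, were lower as well: *NAS2* had 545 and 995 in replicate 1, against 2880.1 and 3251 in replicate 2, a difference of -2.05 (SE 0.20, adjusted p = 3e-08, limma), and *NAS4* differed by -1.57. *OPT3*, a transporter gene of phloem iron signalling, differed by -0.65. The members that were not called, *BTS* and *PYE* among them, which restrain the response, differed by -0.32 and -0.50. In mock 1 of the 25 was called higher and 3 lower, against 1.66% and 1.18% of all genes, with a median of -0.54. The NaCl minus mock test called 5 lower, against 0.164% of all genes, *IRT1* (-1.37), *FRO2* (-1.84) and *BHLH38* (-2.30) among them. The count of 18 was 9 without either WT library, and 12 and 11 without *idd4* NaCl 1 and *idd4* NaCl 2. *BHLH39* (-0.73), *BHLH101* (-1.56) and *OPT3* (-0.92) did not pass within *idd4*, nor *NAS4* (-1.16) and *OPT3* (-0.39) within WT. *MYB10* (-1.98 within WT) was not called without *idd4* NaCl 2.

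The promoter of *BHLH38* is shown since it is the called regulator with the largest difference and its window holds a G-box, in capitals, 97 bases before the start (chr3:21085196-21085495, minus strand, TAIR10.1, RefSeq; 250 bases before to 50 after the start).
BHLH38: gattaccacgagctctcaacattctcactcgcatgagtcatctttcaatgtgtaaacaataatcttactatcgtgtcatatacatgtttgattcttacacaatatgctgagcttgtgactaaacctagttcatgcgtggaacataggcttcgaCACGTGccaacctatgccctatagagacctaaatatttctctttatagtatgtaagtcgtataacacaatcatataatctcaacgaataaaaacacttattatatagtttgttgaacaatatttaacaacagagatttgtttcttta
A G-box was found in 5 of 25 iron deficiency promoters, against 7.78% of all promoters and 8.8% of those of genes tested. The jasmonate list, whose genes differed in the opposite direction, held the same letters in 35.7%.

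Ferritin and iron storage genes were higher, opposite to the uptake genes. Of 8 members 5 were higher in replicate 1 and 0 lower, against 4.91% and 1.67% of all genes, with a median of 0.79. *FER1* (AT5G01600), the ferritin gene induced by iron excess, had 2511 and 1650 in replicate 1, against 804 and 829.5 in replicate 2, a difference of 1.32 (SE 0.20, adjusted p = 3.5e-05, limma). *FER4* had 215 and 215 in replicate 1, against 91.5 and 77.1 in replicate 2, a difference of 1.35 (SE 0.27, adjusted p = 0.0013, limma). Mock values of *FER1* spread more widely, with 6247 in *idd4* mock 1, against 418 in WT mock 1. *NEET*, an iron-sulfur protein gene, had 434 and 776 in replicate 1, against 238 and 256 in replicate 2. The count was 0 without either WT library and 1 without either library labelled *idd4*, in the fits that also hold the mock libraries. *FER1* and *FER4* differed by 1.64 and 1.22 within *idd4* and by 0.99 and 1.47 within WT, and *NEET* (0.86 within *idd4*) was called only within WT.

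**Figure D4:**
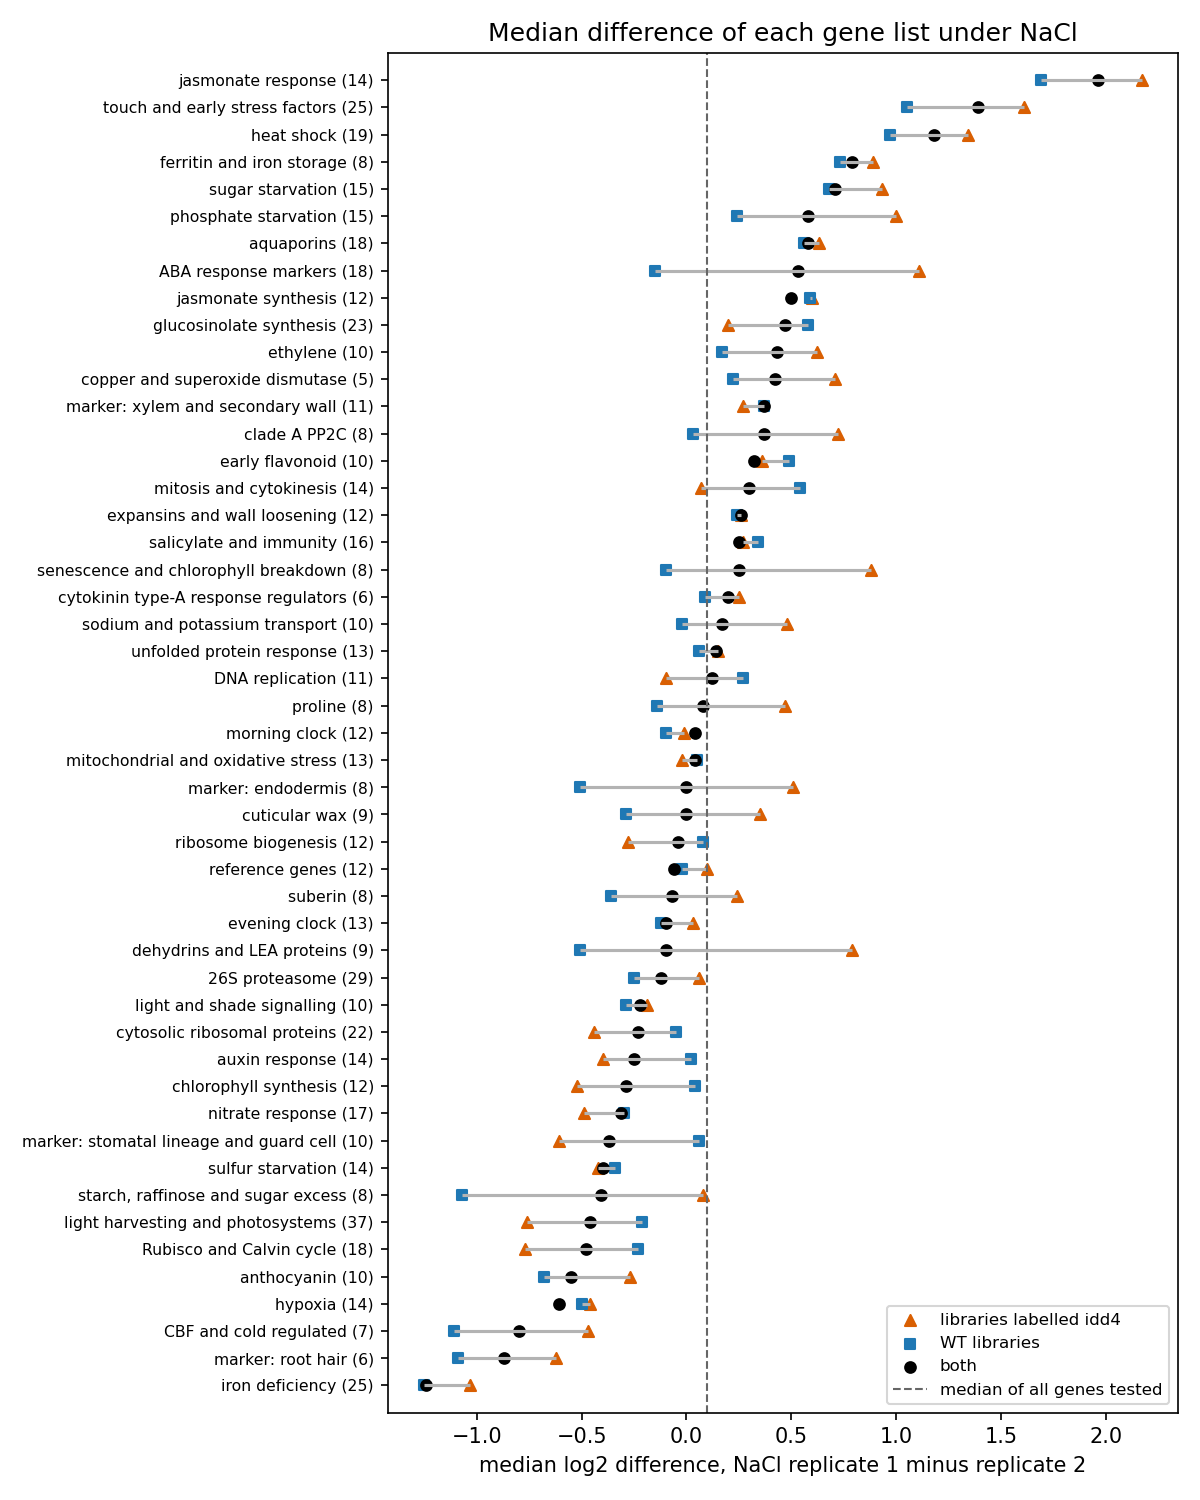
Median log2 difference between replicate 1 and replicate 2 under NaCl for each gene list with at least 5 genes tested (number in brackets), for the libraries labelled *idd4* (triangles), WT (squares) and both (circles), with the median of all genes as a dashed line. Jasmonate response is at the top (1.96) and iron deficiency at the bottom (-1.24).

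Some root hair markers were lower in replicate 1. Of 6 root hair markers 0 were higher and 3 lower, against 4.91% and 1.67% of all genes, with a median of -0.87. *EXPA18*, an expansin gene of root hairs, had 77.1 and 85.0 in replicate 1, against 182 and 227 in replicate 2, a difference of -1.32 (SE 0.27, adjusted p = 0.0019, limma). *LRX1*, a leucine-rich repeat extensin gene, had 133 and 123 in replicate 1, against 324 and 308 in replicate 2, a difference of -1.30 (SE 0.24, adjusted p = 0.00047, limma), and the proline-rich protein gene *PRP3* had 215 and 284 in replicate 1, against 564 and 518 in replicate 2, a difference of -1.12 (SE 0.21, adjusted p = 0.00074, limma). *EXT10*, an extensin gene outside the list, had 149 and 188 in replicate 1, against 828 and 733 in replicate 2, a difference of -2.21 (SE 0.21, adjusted p = 2.7e-08, limma). Without NaCl *LRX1*, *PRP3* and *EXT10* were lower too, at -0.86, -1.04 and -1.29. *COBL9*, *EXPA7* and *RSL4*, which mark the same cells, differed by -0.09, -0.18 and -0.61 under NaCl and did not pass. In whole seedlings fewer cells of a type and less RNA per cell cannot be told apart. The summed level of the 6 markers was 721 and 776 in replicate 1, against 1355 and 1442 in replicate 2. Without either library labelled *idd4*, *PRP3* (-0.86 within WT) was not called.

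Cold-regulated genes were mostly lower in replicate 1. Of 7 members 1 was higher and 4 lower, against 4.91% and 1.67% of all genes. The median was -0.80, and 6 of the differences were below 0. *COR15A* (AT2G42540), which encodes a chloroplast protein that protects membranes during freezing, had 5579 and 6162 in replicate 1, against 14781 and 24443 in replicate 2, a difference of -1.70 (SE 0.25, adjusted p = 3.4e-05, limma). *COR15B* had 1333 and 2229 in replicate 1, against 4198 and 4823 in replicate 2, a difference of -1.38 (SE 0.20, adjusted p = 2.6e-05, limma), and *KIN1* and *KIN2* differed by -0.93 and -0.80. The factor gene *CBF2*, whose values stand with the touch genes, was the 1 that was higher. Its relatives *CBF1* and *CBF3* had differences below 0 and were not called. *COR15A* values in NaCl replicate 2 were the highest of the 8 libraries, against 2964 to 5590 in mock. *KIN1* (-0.90) was not called within WT alone, and *KIN2* (-0.47) not within *idd4* alone. *CBF2* was called within neither, at 1.31 and 0.69.

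The promoter of *COR15A* is shown for its matches to the DRE core, CCGAC, which CBF factors bind (chr2:17712281-17712580, minus strand, TAIR10.1, RefSeq; 250 bases before to 50 after the start), in capitals 142 and 79 bases before the start, the first on the opposite strand.
COR15A: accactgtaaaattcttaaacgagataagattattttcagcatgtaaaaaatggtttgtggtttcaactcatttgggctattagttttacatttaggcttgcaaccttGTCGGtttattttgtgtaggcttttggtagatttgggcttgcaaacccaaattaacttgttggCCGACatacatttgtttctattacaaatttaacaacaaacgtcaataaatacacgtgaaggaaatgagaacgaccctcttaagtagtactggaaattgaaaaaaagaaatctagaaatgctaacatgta
*COR15A* was the 1 of the 7 cold-regulated genes with this match (14.3%), against 14.9% of all promoters and 16.1% of those of genes tested.

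Some hypoxia genes were lower. Of 14 members 1 was higher and 3 lower, against 4.91% and 1.67% of all genes, with a median of -0.61. *HB1* (AT2G16060), a hemoglobin gene induced by low oxygen and nitrate, had 21.5 and 25.01 in replicate 1, against 86.1 and 118 in replicate 2, a difference of -2.07 (SE 0.38, adjusted p = 0.00045, limma), and its mock values were 27.8 and 20.3 in mock replicate 1, against 71.2 and 72.6 in mock replicate 2. *PDC1*, pyruvate decarboxylase, had 335 and 263 in replicate 1, against 639 and 581 in replicate 2, and *ADH1*, alcohol dehydrogenase, had 872 and 328 in replicate 1, against 932 and 1007 in replicate 2. The value of *ADH1* in *idd4* NaCl 1 was close to those of replicate 2, and within *idd4* it differed by -0.10 and did not pass, nor did *PDC1* (-0.93). *HRE2*, an ERF of the same response, was the member that was higher, at 1.63 (SE 0.47, adjusted p = 0.029, limma), and was called within neither *idd4* (2.25) nor WT (1.02) alone.

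Genes of mineral nutrition other than iron differed in several directions, and their counts stand against 4.91% of all genes higher and 1.67% lower. Of 17 nitrate response genes 3 were higher and 5 lower, with a median of -0.31. *NRT2.1* (AT1G08090), a high-affinity nitrate transporter gene, had 793 and 2079 in replicate 1, against 5105 and 3262 in replicate 2, a difference of -1.67 (SE 0.27, adjusted p = 0.00013, limma). *RFNR2*, a root ferredoxin reductase gene, had 1562 and 1938 in replicate 1, against 4809 and 5046 in replicate 2, a difference of -1.50 (SE 0.20, adjusted p = 5.7e-06, limma), and *NIR1*, nitrite reductase, differed by -0.98. *NRT1.8*, which takes nitrate back from the xylem and is induced by stress, was higher, with 1168 and 707 in replicate 1, against 238 and 267 in replicate 2, a difference of 1.85 (SE 0.22, adjusted p = 7.7e-07, limma). Without either library labelled *idd4* 1 was higher and 2 lower, and *NRT2.1* (-0.65), *NRT1.8* (1.4) and *NIR1* (-0.64) did not pass within WT. In mock 0 of the 17 nitrate genes were higher and 4 lower, against 1.66% and 1.18% of all genes, with a median of -0.29. *NRT2.1* (-0.85) and *RFNR2* (-0.73) were among those lower in mock. Under NaCl 0 of 14 sulfur starvation genes were higher and 4 lower, with a median of -0.40. *LSU1*, a marker of low sulfur, had 807 and 615 in replicate 1, against 1535 and 1853 in replicate 2, a difference of -1.26 (SE 0.20, adjusted p = 6.9e-05, limma). In mock 4 members were lower, against 1.18% of all genes. No sulfur gene was called without a WT library (*LSU1*, -0.93 within *idd4*), and 1 without a library labelled *idd4*. Of 15 phosphate starvation genes 3 were higher and 0 lower, with a median of 0.58. *RNS1*, a ribonuclease gene, had 522 and 252 in replicate 1, against 123 and 97.7 in replicate 2, a difference of 1.72 (SE 0.25, adjusted p = 2e-05, limma), and *SPX3*, a phosphate-sensing repressor gene that passed the minimum only through replicate 1, had 44.9 and 16.0 in replicate 1, against 1.55 and 4.34 in replicate 2. No phosphate gene was called without a library labelled *idd4*, with 1.36 for *RNS1* and 1.67 for *SPX3* within WT.

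Aquaporin genes, whose products let water across the plasma membrane (PIP) and the vacuolar membrane (TIP), gave calls in the same direction with and without NaCl. Under NaCl 7 of 18 were higher and 0 lower, and in mock 6 were higher and 0 lower, with a median of 0.58 in each. Over all genes 4.91% were higher and 1.67% lower under NaCl, and 1.66% and 1.18% in mock. With TMM or median-of-ratios scaling the mock count was 0 and its median 0.47. *PIP2;4* (AT5G60660) had 196 and 157 in replicate 1, against 55.1 and 40.2 in replicate 2, a difference of 1.88 (SE 0.30, adjusted p = 0.0001, limma). *PIP1;5* (AT4G23400) had 859 and 651 in replicate 1, against 310.3 and 317 in replicate 2, a difference of 1.25 (SE 0.20, adjusted p = 0.0001, limma), and in mock 1639.6 and 1072 in mock replicate 1, against 657 and 643 in mock replicate 2, a difference of 1.03 (SE 0.16, adjusted p = 0.014, limma). *TIP1;1* had 5575 and 4537 in replicate 1, against 3149 and 2251 in replicate 2, a difference of 0.92 (SE 0.20, adjusted p = 0.0039, limma), and differed by 0.90 in mock. The NaCl minus mock test called 0 of the 18 in either direction. The count under NaCl was 4 without any one of the 4 libraries, and *TIP1;1* (0.82) was not called within *idd4*.

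Genes that are induced when sugars run low gave calls in both directions. Of 15 sugar starvation genes 7 were higher and 2 lower, against 4.91% and 1.67% of all genes, with a median of 0.71. *DIN10*, a raffinose synthase-like gene, had 4865 and 3512 in replicate 1, against 2158 and 1557 in replicate 2, a difference of 1.17 (SE 0.20, adjusted p = 0.00016, limma), and *TPS11*, of the trehalose phosphate synthase family, had 1302 and 1077 in replicate 1, against 633 and 460.4 in replicate 2, a difference of 1.13 (SE 0.19, adjusted p = 0.00017, limma). *DIN1* (1.27) and 3 further *TPS* genes were among the others. *ASN1* (AT3G47340), asparagine synthetase, a common marker of low sugar, was lower, with 710.4 and 796 in replicate 1, against 1333 and 1619 in replicate 2, a difference of -0.96 (SE 0.19, adjusted p = 0.001, limma). Without *idd4* NaCl 1 or 2 the list had 1 call, and *DIN10* (1.17) and *DIN1* (0.79) did not pass. Without WT NaCl 1 and 2 it had 5 and 6 higher and 0 lower. *ASN1* did not pass within either genotype alone (-0.91 within *idd4* and -1.02 within WT), nor *DIN1* without WT NaCl 1 (1.76 within *idd4*). Among starch genes *BAM5*, a beta-amylase gene, had 1164 and 1119 in replicate 1, against 285 and 202 in replicate 2, a difference of 2.24 (SE 0.20, adjusted p = 7.2e-09, limma), and *GBSS1*, granule-bound starch synthase, had 463 and 376 in replicate 1, against 622 and 1151 in replicate 2, a difference of -1.02 (SE 0.23, adjusted p = 0.0036, limma), which did not pass within *idd4* (-0.43) or within WT (-1.61).

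Abscisic acid (ABA), the main hormone of drought and salt responses, was represented by 18 response markers. Of these 5 were higher and 0 lower, against 4.91% and 1.67% of all genes, with a median of 0.53. The genotypes differed in this list, at 1.11 within *idd4* and -0.15 within WT, and that difference was not tested. The called members with the largest differences are NAC factors that respond to jasmonate as well. *NAC019* (AT1G52890) had 639 and 352 in replicate 1, against 34.1 and 38.0 in replicate 2, a difference of 3.68 (SE 0.29, adjusted p = 5e-10, limma), and *NAC055* (AT3G15500) had 309 and 382 in replicate 1, against 43.4 and 42.3 in replicate 2, a difference of 2.97 (SE 0.28, adjusted p = 1.5e-08, limma). *RD20*, a caleosin gene, had 969 and 473 in replicate 1, against 183 and 180.2 in replicate 2. *CYP707A3*, which breaks down ABA, had 310.3 and 147 in replicate 1, against 102 and 79.3 in replicate 2. In mock it went the other way, with a difference of -1.62 (SE 0.34, adjusted p = 0.033, limma), and was the 1 marker called lower there, while 2 were higher. The markers *RD29A*, *RD29B* and *RD22* differed by -0.89, 0.93 and -0.63 and did not pass. Without a library labelled *idd4* 2 members were higher and 1 lower, with *RD20* at 1.39 and *CYP707A3* at 0.88 within WT, and *CYP707A3* (1.60) was also not called within *idd4*. Of 9 dehydrin and LEA genes 1 was higher, *EM1*, with 26.9 and 70.0 in replicate 1, against 3.1 and 2.17 in replicate 2. *EM1* passed the minimum only through replicate 1. Within *idd4* *EM1* differed by 2.77 and did not pass. Among sodium and potassium transport genes *HKT1*, a sodium transporter that unloads the xylem, was the 1 of 10 called, with 30.5 and 53.0 in replicate 1, against 8.53 and 5.43 in replicate 2, a difference of 2.40 (SE 0.57, adjusted p = 0.007, limma), which did not pass within *idd4* (1.72). It too passed the minimum only through replicate 1.

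A few photosynthesis genes were lower in replicate 1, against 1.67% of all genes. Of 37 light harvesting and photosystem genes 0 were higher and 4 lower, with a median of -0.46, and of 18 Rubisco and Calvin cycle genes 0 were higher and 3 lower, with a median of -0.48. Medians were -0.76 and -0.77 within *idd4*, and -0.21 and -0.23 within WT, a difference between genotypes that was not tested. *LHCB2.2*, a light harvesting protein of photosystem II, had 4203 and 9988 in replicate 1, against 11535 and 13681 in replicate 2, and *GAPB*, a subunit of the Calvin cycle dehydrogenase, had 6291 and 8549.9 in replicate 1, against 12996 and 13955 in replicate 2. *SBPASE*, sedoheptulose bisphosphatase, had 2066 and 2845 in replicate 1, against 4026 and 4472 in replicate 2. The lowest of the 4 values of each was in *idd4* NaCl 1. Without *idd4* NaCl 1 or *idd4* NaCl 2, 0 genes of either list were called lower, with -0.45, -0.71 and -0.65 within WT. Without WT NaCl 1 and WT NaCl 2, 11 and 13 light harvesting genes and 5 and 7 Calvin cycle genes were lower.

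Calls among early and late flavonoid genes lay in opposite directions, against 4.91% of all genes higher and 1.67% lower. Of 10 anthocyanin genes, which act late, 0 were higher and 3 lower, with a median of -0.55. *DFR* (AT5G42800), the first enzyme of the anthocyanin branch, had 1811.8 and 1985 in replicate 1, against 3186 and 4459 in replicate 2, a difference of -0.99 (SE 0.20, adjusted p = 0.0014, limma). Of 10 early flavonoid genes 2 were higher and 0 lower: *MYB12*, an activator of flavonol synthesis, with 450.2 and 459 in replicate 1, against 236 and 174 in replicate 2, and *FLS1*, flavonol synthase, with 3109 and 4174 in replicate 1, against 1841 and 1919.6 in replicate 2. No anthocyanin gene was called without a WT library (*DFR*, -0.81 within *idd4*) and 1 without a library labelled *idd4*. No early flavonoid gene was called without WT NaCl 1 (*MYB12*, 0.93, and *FLS1*, 0.76).

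Other genes named by the rule were lower in replicate 1. AT3G28510, annotated as a P-loop nucleoside triphosphate hydrolase, had 70.0 and 53.0 in replicate 1, against 1520.3 and 1760 in replicate 2, a difference of -4.72 (SE 0.22, adjusted p = 1.1e-14, limma), and was lower in mock too, at -3.06 (SE 0.17, adjusted p = 3.5e-05, limma). AT1G52120, annotated as a mannose-binding lectin, had 12.6 and 21.0 in replicate 1, against 140.4 and 199 in replicate 2, a difference of -3.28 (SE 0.37, adjusted p = 3.5e-07, limma). Its mock difference was -2.59 (SE 0.40, adjusted p = 0.013, limma). *UMAMIT14*, an amino acid exporter gene, had 26.9 and 21.0 in replicate 1, against 198 and 204 in replicate 2, a difference of -3.03 (SE 0.34, adjusted p = 3e-07, limma). The nudix hydrolase gene *NUDT24* had 161 and 117 in replicate 1, against 697 and 1445 in replicate 2, and the glutamate receptor-like channel gene *GLR2.3* had 23.3 and 15.0 in replicate 1, against 133 and 181 in replicate 2. AT5G04730, annotated as an ankyrin repeat protein, had 10.8 and 20.01 in replicate 1, against 115 and 156 in replicate 2. Without WT NaCl 2 the calls of *NUDT24* (-2.10), *GLR2.3* (-2.47) and AT5G04730 (-3.30) were lost, and AT5G04730 (-2.90) was also not called within WT. Among wall-loosening genes, *XTH24*, a xyloglucan endotransglucosylase gene, had 2391 and 1236 in replicate 1, against 419.6 and 343 in replicate 2, a difference of 2.18 (SE 0.20, adjusted p = 1.1e-08, limma). *SAG13*, a senescence-associated dehydrogenase gene, had 683 and 218 in replicate 1, against 76.8 and 45.6 in replicate 2, a difference of 2.69 (SE 0.27, adjusted p = 6.3e-08, limma).

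Housekeeping programmes and several cell type markers gave 0 calls in this comparison. None of 12 reference genes, 22 cytosolic ribosomal protein genes, 29 proteasome genes, 12 ribosome biogenesis genes, 11 DNA replication genes, 13 unfolded protein response genes, 10 light and shade genes, 12 chlorophyll synthesis genes, 8 suberin genes or 6 type-A cytokinin response regulators was called, with medians from -0.29 (chlorophyll synthesis) to 0.20 (cytokinin). Without either WT library, which leaves the difference within *idd4*, 1 chlorophyll synthesis gene was higher and 4 lower, and the median of that list was -0.52 within *idd4* and 0.04 within WT. *ACT2*, an actin gene, differed by 0.26, and *PP2AA3*, a phosphatase subunit gene, by 0.23. A median near 0 with 0 calls does not show that the levels were equal. In the clock, 1 of 12 morning genes and 1 of 13 evening genes were called: *RVE2*, at 1.09, and *BOA*, at 1.14. *RVE2* was higher in mock too, at 1.82. *BOA* (0.98 within WT) was not called without a library labelled *idd4*, nor *RVE2* (1.04) without *idd4* NaCl 1, and the central genes *CCA1* and *LHY* differed by -0.18 and 0.56 and did not pass. Of 44 genes of the plastid genome 0 were higher and 1 lower, of 26 of the mitochondrial genome 0 were called, and of all 295 annotated cytosolic ribosomal proteins 1 was higher and 2 lower. Among smaller hormone and metabolic lists, 2 of 14 auxin response genes, 1 of 8 clade A PP2C genes, 1 of 8 proline genes, 1 of 8 senescence genes (*SAG13*) and 1 of 14 mitosis genes were higher with 0 lower, 3 of 12 expansin and wall genes were higher and 1 lower, 2 of 13 mitochondrial and oxidative stress genes were higher and 1 lower, 1 of 5 copper genes was higher and 1 lower, and 1 of 9 cuticular wax genes was lower, against 4.91% of all genes higher and 1.67% lower. The PP2C, proline, mitosis and wax lists had 0 calls without any one of the 4 libraries. With 1 library left out the auxin list had 1 higher and at most 1 lower, the expansin and wall list 1 or 2 higher and 1 lower, the copper list 0 higher and at most 1 lower, and the oxidative stress list 1 or 2 higher and at most 2 lower. The senescence list had 3 higher and 0 lower without either WT library, and 1 higher and 1 lower without either library labelled *idd4*. Of 8 starch and sugar excess genes 1 was higher and 2 lower. Of the marker lists for other cells, endodermis (8 genes), root meristem (4), phloem (4) and stomatal lineage (10) had 0 calls, xylem 1 of 11, and 1 floral organ gene was tested and not called. Of 11 seed storage genes 10 were under the limit of 10. The other, *SESA1* (AT4G27140), an albumin gene of seeds that passed only through replicate 1, had 55.6 and 43.0 in replicate 1, against 0 and 0 in replicate 2, at least 23.9-fold higher in *idd4* and 13.2-fold higher in WT with a floor of 3 fragments per library, and 0 in every mock library. Whether seed material contributed was not tested.

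The mock libraries, which share no library with the salt comparison, had 325 genes higher and 230 lower in replicate 1. With median-of-ratios scaling these were 25 and 74, and with TMM 38 and 95, so that how many mock genes pass in each direction depends on the scaling. Of the 959 genes higher under NaCl, 70 were higher and 67 lower in mock, and of the 327 lower under NaCl 54 were lower and 2 higher. Over all genes 1.66% were higher and 1.18% lower in mock. At least 2-fold in the same direction in each genotype, 147 genes were higher and 75 lower in mock. Of them 40 and 16 were so under NaCl as well, against 563 and 156 of all 19534 genes. The test of NaCl minus mock called 296 higher and 32 lower. Of the 296, 256 were also higher under NaCl, against 4.91% of all genes, and 99 were called lower in mock, against 1.18%. A mock difference below 0 was measured in 231 of them. Of the 32, 25 were also lower under NaCl, against 1.67% of all genes. The 296 and the 32 were selected by the NaCl difference minus the mock difference in the same libraries. These counts are therefore partly built into the selection and are not a separate result. The jasmonate response list had 8 of 14 called higher in the NaCl minus mock test, against 1.52% of all genes, *TAT3* (4.02), *JAZ10* (3.78) and *MYC2* (2.42) among them. *JRG21*, outside the list, was called too (5.72). In mock *TAT3* was at most 2.14 and *JRG21* at most 0.99, so near the floor that their values largely repeat the NaCl difference. Against the mock libraries of the same number, the median jasmonate response gene was 2.58 higher in NaCl replicate 1 and 0.63 higher in NaCl replicate 2. The median iron deficiency gene was 0.20 lower in NaCl replicate 1 and 0.72 higher in NaCl replicate 2.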

How the data were processed

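The 8 libraries were made from total RNA of whole seedlings with Illumina kits and read as 101 bp pairs. Per the study's methods, reads were trimmed with Trimmomatic 0.32 (minimum 36 bp) and aligned with TopHat to TAIR10 allowing 2 mismatches, and values came from Cufflinks. The file deposited by the authors names its values FPKM, but they are a scaled signal: whole fragment counts (within 0.05 of a whole number) times 1 factor per library, with no division by length and nearly equal totals. The design had assumed FPKM, and the same test was kept. No column was left out (0 columns not used).

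Values of the 19534 genes were tested as log2(value + 1) in limma 3.58.1 (R 4.3.3) with a variance trend, genotype as covariate and Benjamini-Hochberg adjustment over all of them. The mock comparison used the same genes, and NaCl minus mock was fitted on all 8 libraries. Alternatives used edgeR 4.0.16 and DESeq2 1.42.0 on recovered fragments, other scalings, pseudocounts, filters, thinning and libraries left out. The scripts were tested on simulated data. Named genes were, per direction, up to 12 called genes with the largest difference, separate replicates and a mean of at least 50, up to 6 of NaCl minus mock, and up to 5 members of each of 53 gene lists. Further list members, such as *MYC2*, *JAZ1* and *FIT*, and genes outside the lists were added to the text with their values known. The members and lists were chosen with earlier results of these data known. Of 27207 genes 26558 matched the RefSeq annotation of TAIR10.1, the source of the promoters.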

Additional observations from a re-analysis of the deposited data

Results flagged for a closer look

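Differences between the replicates were not the same with and without NaCl. By the limma test of NaCl minus mock, which shares its libraries with both comparisons, 296 genes had a higher difference under NaCl and 32 a lower one. Among the touch and early stress genes 18 of 25 were higher, against 1.52% of all genes. The largest were *RRTF1* (6.55), *JRG21* (5.72), *DIR5* (5.48), *ERF13* (5.48), *TPS04* (5.28) and *AOX1D* (4.30), on the log2 scale. In the mock libraries *JRG21* was at most 0.99, *TPS04* at most 1.99 and *AOX1D* at most 4.97. So near the floor a mock difference could hardly be measured, and these 3 values largely repeat the NaCl difference. *RRTF1* and *DIR5* passed the minimum of 10 only through NaCl replicate 1. The lowest were AT3G12900 (-4.53), *CYP82C4* (-3.11), *UMAMIT14* (-2.57), AT3G61930 (-2.53), *BHLH38* (-2.30) and AT1G12570 (-1.93).

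The median difference under NaCl had opposite signs in the genotypes for 22 of 56 gene lists, and for 3 of them, with at least 3 genes tested, it was at least 0.3 in size in each genotype. The difference between genotypes was not tested. It was 0.79 within *idd4* and -0.51 within WT for dehydrins and LEA proteins. Endodermis markers had 0.51 within *idd4* and -0.51 within WT. Root meristem markers had -0.49 within *idd4* and 1.26 within WT.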

How the results depend on the processing

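No paired analysis was possible because the replicate number is itself the comparison. The 1286 genes called between NaCl replicates were 596 with DESeq2, 752 without the genotype covariate and 293 without a variance trend, and 566 to 963 when 1 library was left out (566 without *idd4* NaCl 1, 584 without *idd4* NaCl 2). The other settings kept the count within 1.5 times. Without a variance trend the higher calls were 9 instead of 13 in the jasmonate response list and 6 instead of 15 in the heat shock list. They were 1 instead of 8 in the glucosinolate list, and 0 instead of 7 and 5 in the sugar starvation and ferritin lists. Lower calls were 6 instead of 18 in the iron deficiency list and 0 instead of 3 among root hair markers. Splits into higher and lower calls were 797 and 458 with median-of-ratios scaling, 757 and 405 with TMM, 695 and 415 with quantile normalization and 831 and 442 with edgeR. The 555 mock calls were 218 with DESeq2, 133 with TMM, 99 with median-of-ratios scaling, 90 in the fit of all 8 libraries, 65 without the covariate, 5 with quantile normalization, 9 with thinning and 1722 without a filter. By limma with a minimum mean of 1 or without a variance trend 0 were called in mock, with 2943 and 3149 genes at an unadjusted p under 0.05 and 625 calls by edgeR. Without 1 mock library 75 to 204 were called. The 328 calls of NaCl minus mock were 1 without a variance trend and 296 to 396 without 1 library. Of the 145 genes examined under NaCl, in 2465 combinations of gene and setting, 2127 kept direction and side of the threshold, 309 lost the call, 7 gained one and 22 turned sign. The genes that turned sign had not been called. *IDD4* was at -0.03 with DESeq2, TMM, median-of-ratios and quantile scaling, at -0.02 with edgeR and at -0.05 within WT, against 0.19 within *idd4*. *FIT* was at -0.05 with DESeq2, TMM and edgeR, -0.06 with median-of-ratios, -0.04 with quantile scaling and -0.19 within WT. *MYB29* was at -0.85 within *idd4* and 0.29 within WT, *RD29B* at 2.22 and -0.36, *EXPA7* at 0.11 and -0.47, and *RSL4* at 0.12 and -1.35, in the same order. The causes were not tested. Of the genes examined, 32 were called in mock, and in 289 of 543 combinations of gene and setting that mock call was lost. Without a variance trend all 32 mock calls were lost, and with thinning 29. With 2 libraries per replicate number and 1 residual degree of freedom, the calls rest on the variance trend, and *idd4* NaCl 1 has the least depth.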
